A study of Mus musculus with 3 samples.

Results

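The 10 genes described here belong to the machinery that folds proteins in the endoplasmic reticulum (ER) and to the unfolded protein response. They were chosen by gene symbol, after Dnajc3 had been seen at a higher level in mutant round spermatids of these data, to ask whether its difference came with a wider ER stress response. All 10 of them (Dnajc3, Hspa5, Hsp90b1, Pdia3, Calr, Canx, Xbp1, Atf4, Ddit3 and Eif2ak3) are among the 31053 genes counted. Because that difference of Dnajc3 chose the genes, its ratio in round spermatids is given below as a description.

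Testicular cells of C57BL/6 mice were profiled by single-cell RNA-seq on the 10x Genomics droplet system, where each captured transcript carries a unique molecular identifier (UMI) that is counted 1 time. There was 1 library each of wild type (WT), GRTH-KO and GRTH-KI mice. GRTH is DDX25, a germ cell RNA helicase of the testis. KO mice lack it, and KI mice carry a knock-in form of GRTH without its phosphorylated species. The labels give 1 mouse of 8 weeks per library, whereas the methods of the study describe testes pooled from a pair of mice per genotype. Those methods also give a range of ages for the study's mice, which starts at 8 weeks. The number and the age of the animals behind a library are therefore uncertain, and there is no replicate library of any genotype. Every interval below is an exact 95% interval that covers counting error only, and no p-value is given.

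UMI totals were 82973909 for the WT library, 91388296 for KO and 73150373 for KI. After cell calling and filtering, 5860 WT, 4065 KO and 1576 KI cells were kept, with median UMI totals of 5132.5, 3971 and 11685. Between 19 and 47 kept barcodes per library also occurred among the kept barcodes of another library. Ddx25, which encodes GRTH, gave 0 UMIs in round spermatid-like cells of KO, which allows a level of up to 0.35 CPM, against 1587 in WT and 1216 in KI.

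Proteins that enter the secretory pathway fold in the ER with the help of resident chaperones. When unfolded proteins accumulate there, 3 membrane sensors respond: PERK (the product of Eif2ak3), which phosphorylates eIF2-alpha and raises translation of ATF4 and then transcription of Ddit3, IRE1, which splices Xbp1 mRNA, and ATF6, which is cut to release a transcription factor. ATF6 and spliced XBP1 induce chaperone genes through the ER stress element in their promoters. Round spermatids build the acrosome, a secretory vesicle that caps the nucleus, and whether they depend on this response was not tested. Counts of 3' ends show the amount of a transcript, and neither Xbp1 splicing nor eIF2-alpha phosphorylation nor any protein was measured.

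Promoters of the 10 genes were searched for the ER stress element, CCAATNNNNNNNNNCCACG, on both strands, in RefSeq windows of GRCm38.p6 that run from 250 bases before each transcription start to 50 bases after it. The element was found for 5 of the 10 genes, namely Dnajc3, Hspa5, Hsp90b1, Calr and Canx, and in 39 of all 32851 promoter windows (0.119%). Because the 10 genes were chosen as members of this response, the number that hold its element is a description and no test. The 250 bases upstream of Dnajc3 (chr14:118937682-118937931, plus strand) and Hspa5 (chr2:34771840-34772089, plus strand) are shown whole because these genes had the highest ratios in KO round spermatids, and for the other 3 genes the element is shown with 15 bases on either side, at chr10:86705623-86705671 and chr10:86705518-86705566 for Hsp90b1, chr8:84847060-84847108 for Calr and chr11:50325785-50325833 for Canx, all on the minus strand. Sequences run 5' to 3' on the strand of the gene, and capitals mark the element, which reads as its reverse complement in the second Hsp90b1 match and in Calr.
Dnajc3: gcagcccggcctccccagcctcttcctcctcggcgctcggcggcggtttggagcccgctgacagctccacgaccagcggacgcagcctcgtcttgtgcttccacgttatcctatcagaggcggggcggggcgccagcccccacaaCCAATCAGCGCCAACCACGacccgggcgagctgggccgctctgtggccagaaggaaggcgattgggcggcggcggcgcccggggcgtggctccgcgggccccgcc
Hspa5: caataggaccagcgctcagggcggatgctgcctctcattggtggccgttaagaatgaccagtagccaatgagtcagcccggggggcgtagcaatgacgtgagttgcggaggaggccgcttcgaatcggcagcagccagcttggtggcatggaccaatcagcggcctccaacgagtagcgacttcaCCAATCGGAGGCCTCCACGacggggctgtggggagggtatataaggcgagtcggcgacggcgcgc
Hsp90b1, first match: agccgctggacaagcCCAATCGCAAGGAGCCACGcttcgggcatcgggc
Hsp90b1, second match: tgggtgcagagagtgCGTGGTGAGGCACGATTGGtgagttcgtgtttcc
Calr: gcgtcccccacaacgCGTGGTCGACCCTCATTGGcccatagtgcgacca
Canx: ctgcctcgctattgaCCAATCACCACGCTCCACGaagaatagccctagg

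The first base of the element lay 105 bases upstream of the start of Dnajc3, 65 upstream of Hspa5, 212 and 107 upstream of Hsp90b1, 162 upstream of Calr and 145 upstream of Canx. These distances are to the RefSeq start. For Hspa5 that start lies downstream of the start of the gene position given below, so that its element falls inside that position. The windows of Xbp1, Atf4, Ddit3, Pdia3 and Eif2ak3 held no copy of these letters, which says nothing of other sites or of factors that bind there. The element was held by 37 genes in all.

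Clusters of cells were named by marker genes after the 3 libraries had been integrated. Round spermatid-like (RS-like) cells were clusters 1 and 4, which together held 1244 WT, 1109 KO and 445 KI cells. Spermatocyte-like (SP-like) cells were 5 clusters with 1364, 1159 and 532 cells, and Sertoli-like cells, the somatic nurse cells of the seminiferous tubule, were 1 cluster with 196, 267 and 85 cells. Cluster 11 stayed unnamed, since its highest marker score was for early meiotic cells but markers of spermatocytes were more frequent among its leading genes, and cluster 7 was the elongating spermatid-like cluster with the highest round spermatid score. Levels are in CPM, which scales the summed UMIs of a population to the same total in every library, and genes with a mean of at least 10 CPM over the 3 libraries were compared. A gene was called where its ratio to WT was at least 1.5-fold.

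**Figure D1:**
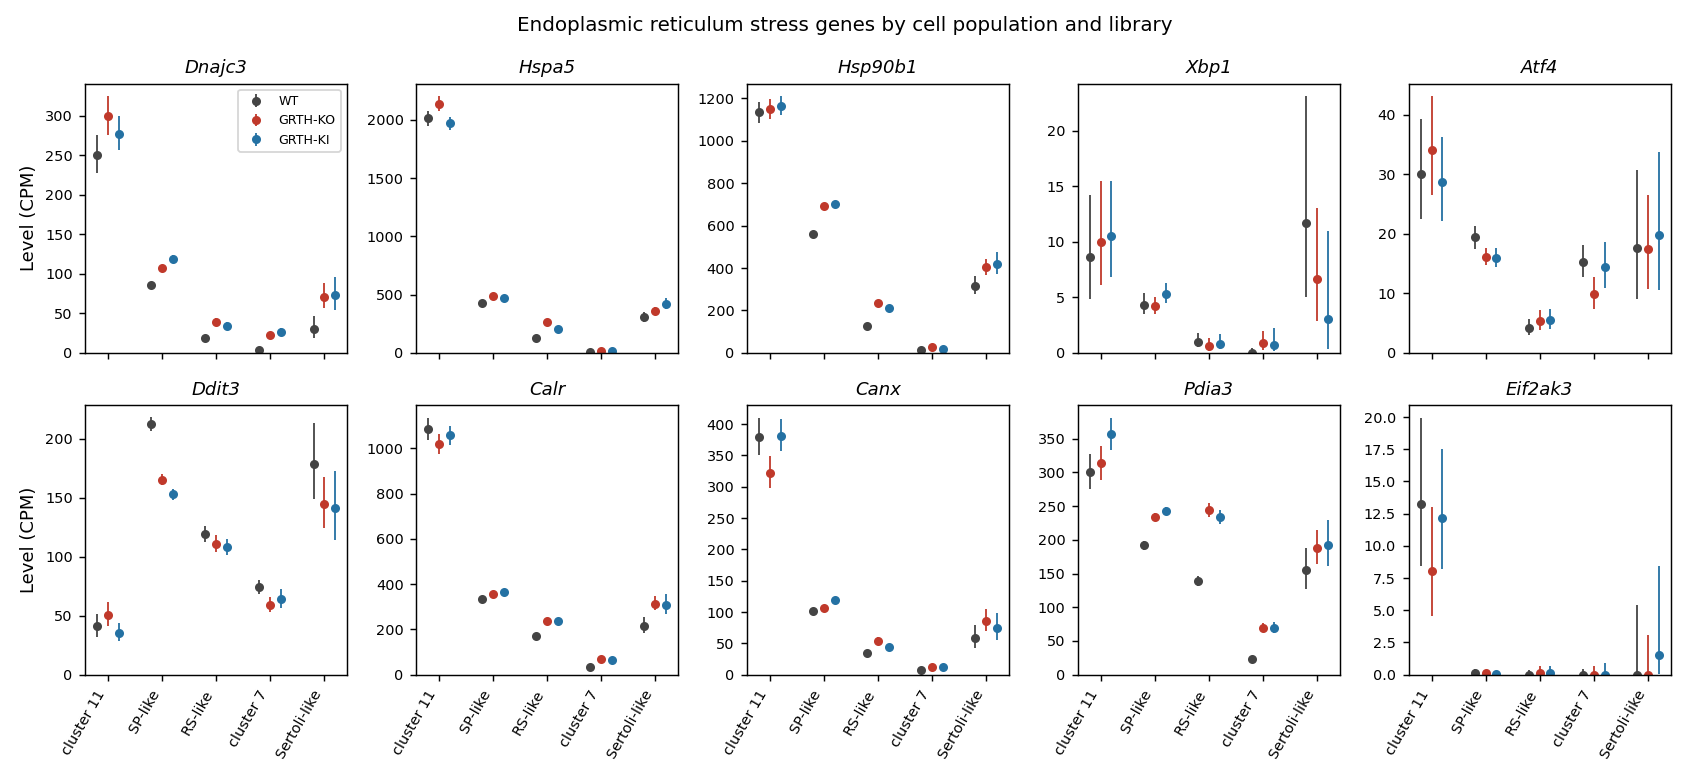
Levels of the 10 genes in CPM (y axis, linear and from 0) in 4 germ cell populations and in Sertoli-like cells (x axis), with WT in grey, KO in red and KI in blue; bars are exact 95% Poisson intervals. Among the populations shown, Dnajc3 and the chaperones were highest in cluster 11. In RS-like cells both mutants sat above WT for the 6 chaperone genes but not for Ddit3.

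Dnajc3 (ENSMUSG00000022136, chr14:118937976-118981697, plus strand) encodes P58IPK, a co-chaperone of the ER lumen that also inhibits PERK. In RS-like cells its level was 18.58 CPM in WT (199 UMIs), 39.61 CPM in KO (340 UMIs) and 34.71 CPM in KI (294 UMIs), so that neither mutant overlapped WT within the counting intervals. The ratio to WT was 2.13-fold (1.78 to 2.55) in KO and 1.87-fold (1.56 to 2.25) in KI, or 1.09 and 0.90 on the log2 scale. All genes compared in RS-like cells had a median log2 ratio of 0.13 in KO and in KI, and the log2 ratio of Dnajc3 stood 0.97 and 0.77 above these medians. It exceeded the ratio of 96.9% of the 8283 genes in KO and of 94.0% in KI.

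The ATP-driven chaperones of the ER were also higher in both mutants in RS-like cells, a direction that turned without integration, as given below. Hspa5 (ENSMUSG00000026864, chr2:34771970-34777547) encodes BiP, the Hsp70 of the ER, which holds the stress sensors inactive. It stood at 128.3 CPM in WT, 262.9 CPM in KO and 203.2 CPM in KI, a log2 ratio of 1.03 (0.94 to 1.13) in KO and 0.66 (0.56 to 0.77) in KI. Hsp90b1 (ENSMUSG00000020048, chr10:86690209-86705509) encodes GRP94, the Hsp90 of the ER. Its levels were 127.9 CPM in WT, 236.6 CPM in KO and 211.0 CPM in KI, with log2 ratios of 0.89 (0.79 to 0.99) and 0.72 (0.62 to 0.82). For Hspa5 the KO level lay above the KI level, and their Poisson intervals did not overlap. In cluster 4 alone these intervals did overlap, at 199.4 to 220.6 CPM in KO and 181.8 to 201.6 CPM in KI.

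The lectin chaperones and their partner gave smaller or similar ratios. Pdia3 (ENSMUSG00000027248, chr2:121413775-121438687) encodes ERp57, the disulfide isomerase that works with calnexin and calreticulin. Its level went from 139.0 CPM in WT to 244.3 CPM in KO and 233.3 CPM in KI, log2 ratios of 0.81 (0.72 to 0.91) and 0.75 (0.65 to 0.84). Calr (ENSMUSG00000003814, chr8:84841850-84846934), which encodes the calcium-binding lectin calreticulin, stood at 170.1 CPM in WT, 237.0 CPM in KO and 236.7 CPM in KI, a log2 ratio of 0.48 in each mutant and below 1.5-fold. Canx (ENSMUSG00000020368, chr11:50293961-50325673), which encodes the membrane lectin calnexin, had 34.65 CPM in WT against 54.41 CPM for KO and 43.68 CPM for KI, giving log2 ratios of 0.65 (0.45 to 0.85) and 0.33 (0.12 to 0.55). Canx was thus past 1.5-fold in KO and not in KI.

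The signalling arms of the response were represented by 4 genes, of which Ddit3 alone was high enough to be compared. Ddit3 (ENSMUSG00000025408, chr10:127290774-127296288) encodes CHOP, the factor induced late on the PERK arm. In RS-like cells it stood at 119.3 CPM in WT, 111.0 CPM in KO and 108.0 CPM in KI, a log2 ratio of -0.10 (-0.23 to 0.02) in KO and -0.14 (-0.27 to -0.02) in KI. The 3' end of Ddit3 overlaps that of Mars, on the other strand, by 68 bases, and whether the counting kept the strands apart is not stated in the sources used here. Another gene entry of the same name overlaps Ddit3 on its own strand and is listed among the genes counted. How the counting treated reads that fall in both entries was not tested, so the Ddit3 levels given here may be affected by it. Atf4, which encodes the translationally controlled activator of the same arm, had 45, 46 and 47 UMIs in WT, KO and KI, which is 4.20, 5.36 and 5.55 CPM and below the minimum for comparison.

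Xbp1 and Eif2ak3 were too low in RS-like cells to be compared. Xbp1, the target of IRE1, had a sum of 11 UMIs in the WT cells, 5 among KO cells and 7 among KI cells. Eif2ak3, the gene of the PERK sensor itself, gave 0 UMIs in WT, which allows a level of up to 0.28 CPM, and 1 in each mutant, so that a difference was not detectable at this depth. Of the 10 genes, 7 were therefore compared in RS-like cells.

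Dnajc3, whose difference chose the genes, is left out of the next counts. Of the 6 others, 4 were called higher in KO, where 14.0% of all genes compared were called higher, and 3 were called higher in KI, where the share was 16.6%. The 3 called in both mutants were Hspa5, Hsp90b1 and Pdia3, against 11.2% of all genes. None of the 6 was called lower, against 8.8% of all genes in KO and 11.1% in KI. Their median log2 ratio was 0.73 in KO and 0.57 in KI. With Dnajc3 included the median was 0.81 in KO and 0.66 in KI. With the trimmed mean of M values (TMM) scaling in place of UMI totals, all log2 ratios in RS-like cells moved by -0.18 in KO and -0.14 in KI, and the medians with Dnajc3 came to 0.64 and 0.52. Of the 6 others, 3 were then called higher in KO and 1 in KI, against 8.03% and 10.46% of all genes. Hspa5 at 0.52 and Hsp90b1 at 0.58 in KI and Canx at 0.47 in KO were below 1.5-fold. Pdia3 alone was thus called in both mutants, against 6.47% of all genes. Over all genes TMM turned 1160 called higher and 729 lower in KO into 665 and 1177, and 1377 and 921 in KI into 866 and 1297.

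**Figure D2:**
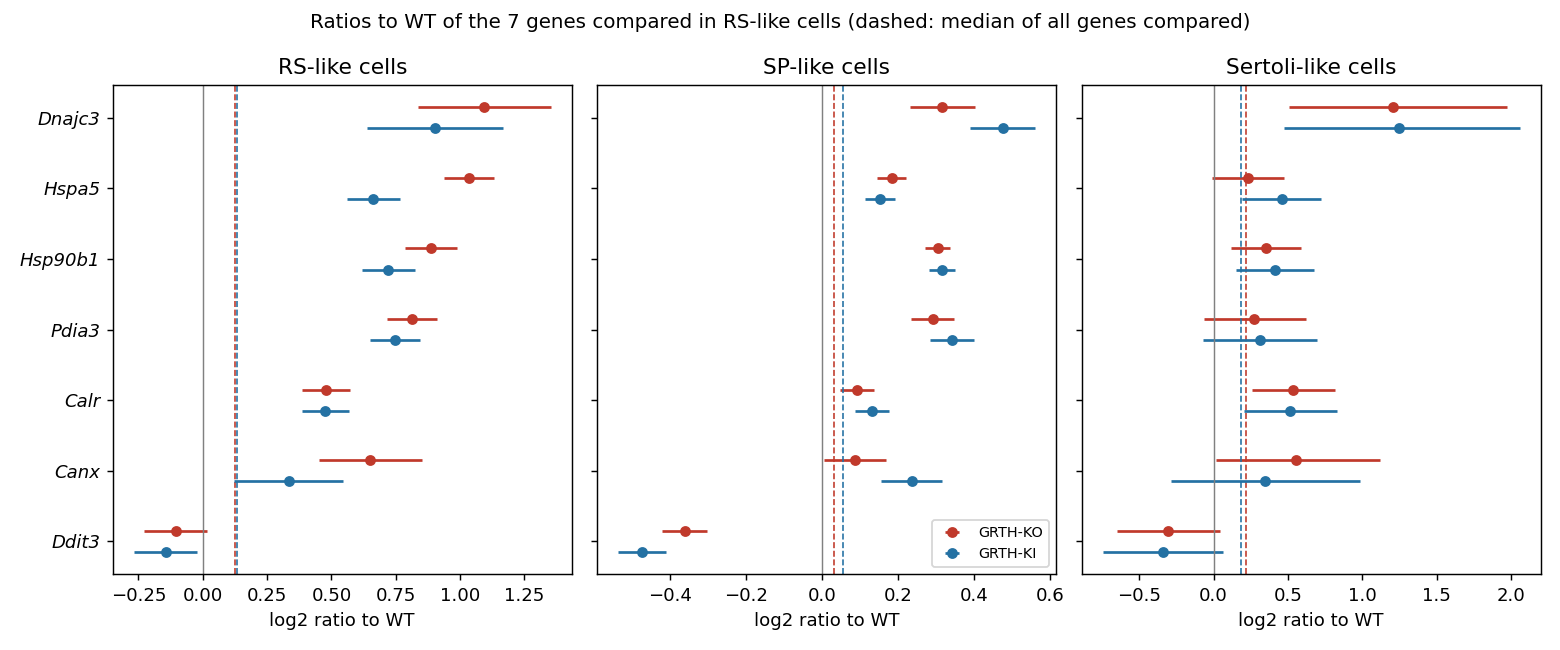
Log2 ratio to WT (x axis, a separate scale in each panel) of the 7 genes compared in RS-like cells, in RS-like, SP-like and Sertoli-like cells, with KO in red and KI in blue; bars are exact 95% intervals for counting error, the grey line marks 0 and dashed lines the median of all genes compared. In RS-like cells the 6 chaperone genes lay to the right of these medians and Ddit3 to the left.

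Markers of other stages moved with this result, and their part in it was not tested. In RS-like cells the 9 spermatocyte markers that could be compared had a median log2 ratio of 0.57 in KO and 0.58 in KI, and their summed level was 1468 CPM in WT, 1884 CPM in KO and 1845 CPM in KI. The 10 round spermatid markers had medians of 0.08 and -0.02. The 10 elongating spermatid markers had medians of -1.10 and -1.86, with summed levels of 9943, 4248 and 2917 CPM. Mitochondrially encoded transcripts made up 3512, 5922 and 4921 CPM. Markers of somatic cells were low, and their sums too were higher in the mutants. The 10 Sertoli markers summed to 7.938 CPM in WT, 17.36 CPM in KO and 12.16 CPM in KI, the 4 endothelial markers to 5.136, 15.38 and 13.1 CPM, and the 8 macrophage markers to 6.35, 9.903 and 9.563 CPM. The 8 stromal and myoid markers summed to 1.774, 8.155 and 2.243 CPM and the 5 Leydig markers to 1.681, 5.01 and 5.195 CPM. The highest of these sums were close to the level of Dnajc3 in WT.

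The way round spermatids were taken changed the direction of Hspa5, Hsp90b1, Calr and Canx, and not that of Dnajc3 and Pdia3. Without integration there were 3 RS-like clusters. The largest held all genotypes, with 768 WT, 757 KO and 269 KI cells, whereas another held 1019 WT cells and 1 KO cell and the last held 5 WT, 627 KO and 244 KI cells. In the mixed cluster Hspa5 was at 204.5 CPM in WT, 654.8 CPM in KO and 429.6 CPM in KI, and Hsp90b1 at 240.0, 603.4 and 527.6 CPM. Both were thus higher in the mutants there, as was Dnajc3 at 37.41, 67.2 and 70.49 CPM. Its elongating spermatid markers summed to 32065 CPM in WT, 5641 CPM in KO and 4462 CPM in KI.

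The other clusters set WT cells of 1 cluster beside mutant cells of another. The WT cluster had 245.8 CPM of Hspa5, whereas the KO and KI cells of the mutant cluster had 46.85 and 31.73 CPM. The mutant cluster carried 53918 CPM of elongating spermatid markers in KO and 46051 CPM in KI, against 10760 CPM in the WT cluster. Over all RS-like cells of that clustering Dnajc3 stood at 18.86 CPM in WT, 34.85 CPM in KO and 36.60 CPM in KI, log2 ratios of 0.89 and 0.96. Hspa5 was at 241.1 CPM in WT but 127.5 CPM in KO and 73.43 CPM in KI, and Hsp90b1 at 232.8, 123.6 and 95.94 CPM. Both were thus lower in the mutants in these sums over the 3 clusters. Ddit3 there stood at 138.9, 72.92 and 74.01 CPM, log2 ratios of -0.93 and -0.91, past 1.5-fold lower in each mutant. The median of the 10 genes' ratios that could be compared came to -0.50 in KO and -0.79 in KI.

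The integrated RS-like cells included 248 KO cells and 113 KI cells, but 7 WT cells, that fell in 1 SP-like cluster when the libraries were not integrated. Restricted to cells that were RS-like in both clusterings (1227 in WT, 851 in KO and 332 in KI), a set chosen after the data were seen, Dnajc3 was at a log2 ratio of 1.37 in KO and 1.22 in KI. Pdia3 then stood at 1.01 and 0.86 and Calr at 0.46 and 0.39. Hspa5 was at 0.78 in KO but -0.31 in KI, Hsp90b1 at 0.66 and 0.17, and Canx at 0.45 and -0.05. Over the 12 alternatives run, Dnajc3 stayed above 0 in every case, between 0.89 and 1.37 in KO and between 0.76 and 1.22 in KI, and Pdia3 also stayed above 0, between 0.13 and 1.20 in KO and between 0.16 and 1.31 in KI. Hspa5, Hsp90b1, Calr and Canx changed direction in at least 1 of them.

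**Figure D3:**
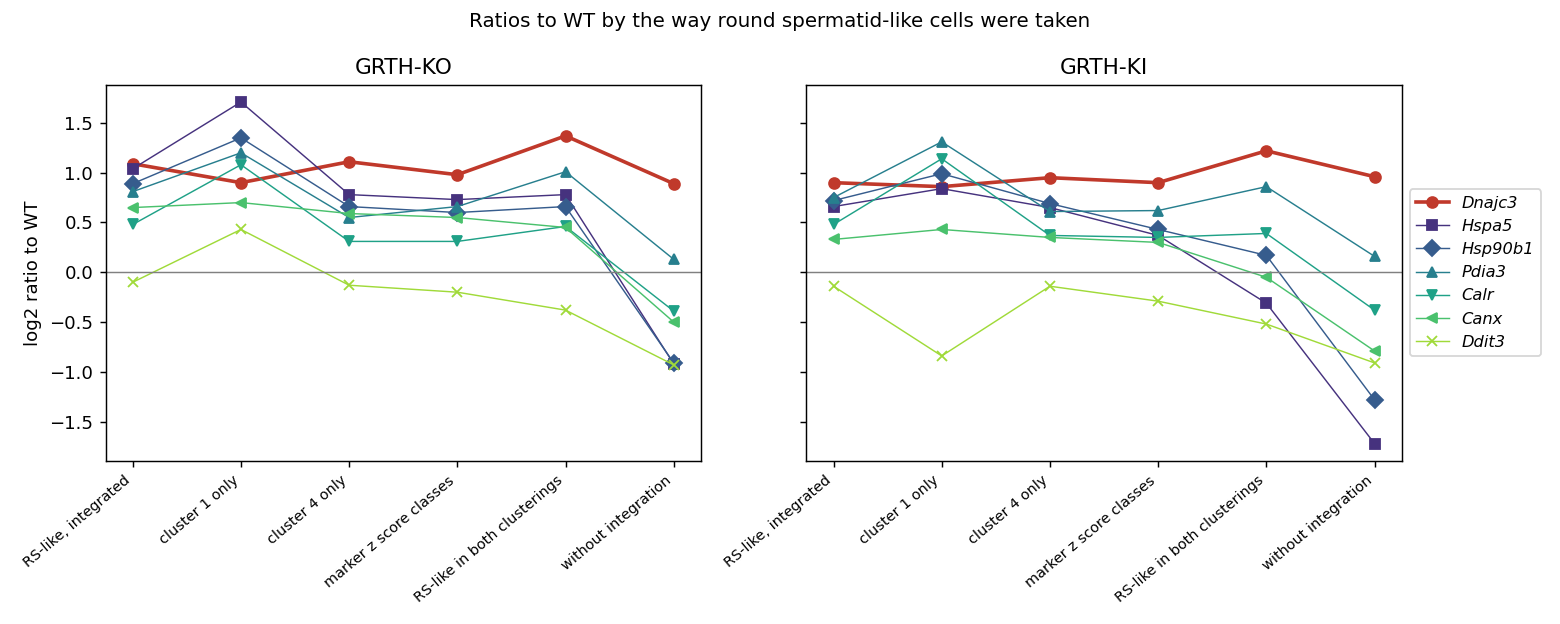
Log2 ratio to WT (y axis) of the 7 genes compared in RS-like cells for 6 ways of taking these cells (x axis), in KO on the left and KI on the right; lines join the values of 1 gene and carry no order. Dnajc3 (thick red line) stayed between 0.86 and 1.37, whereas Hspa5, Hsp90b1, Calr and Canx lay below 0 without integration.

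**Figure D4:**
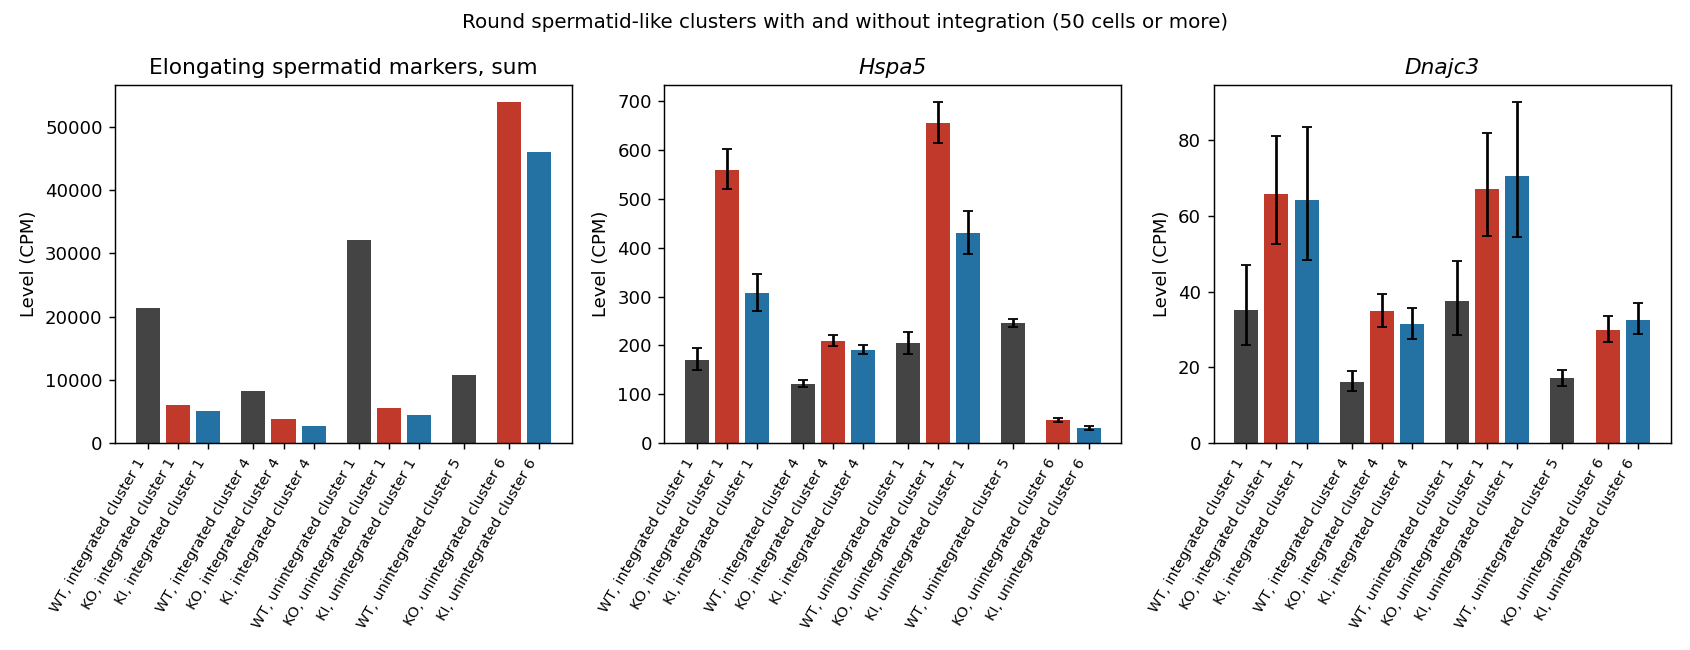
Summed level of 10 elongating spermatid markers and levels of Hspa5 and Dnajc3 in CPM (y axes from 0) in integrated clusters 1 and 4 and in the unintegrated RS-like clusters 1, 5 and 6, by library, where at least 50 cells were held; bars on the genes are exact 95% Poisson intervals. Unintegrated cluster 6, which holds mutant cells, had the highest elongating spermatid markers and the lowest Hspa5, while in each cluster with all 3 libraries both genes were higher in the mutants.

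The 2 RS-like clusters gave different sizes. In cluster 4, the deeper cluster with median UMI totals of 12462, 13113 and 27731, Dnajc3 stood at 16.21 CPM in WT, 34.91 CPM in KO and 31.40 CPM in KI (log2 ratios 1.11 and 0.95), and Hspa5 at 122.2, 209.8 and 191.5 CPM (0.78 and 0.65). In cluster 1, whose cells had median totals of 1212, 1388 and 1968 UMIs, Dnajc3 stood at 35.28, 65.73 and 64.13 CPM from 47, 86 and 55 UMIs (0.90 and 0.86). Hspa5 there went from 171.1 CPM in WT to 558.7 CPM in KO and 306.7 CPM in KI, log2 ratios of 1.71 and 0.84. In this cluster the spermatocyte markers summed to 1334 CPM in WT, 1934 CPM in KO and 1308 CPM in KI (median log2 ratios 1.05 and -0.03), and mitochondrially encoded transcripts to 5736, 12118 and 5917 CPM. Both were thus higher in KO and close to WT in KI. Elongating spermatid markers there were lower in both mutants, with sums of 21432, 6122 and 5138 CPM. In cluster 4 the spermatocyte markers summed to 1487, 1875 and 1905 CPM and the elongating spermatid markers to 8310, 3912 and 2667 CPM. The part of all these in the ratios was not tested. Ddit3 differed between the clusters, since in cluster 1 it stood at 56.29 CPM in WT, 75.66 CPM in KO and 31.48 CPM in KI from 75, 99 and 27 UMIs. Its log2 ratio there was 0.43 (-0.02 to 0.88) in KO and -0.84 (-1.53 to -0.19) in KI, the latter past 1.5-fold, against 128.3, 117.4 and 116.6 CPM in cluster 4. Leaving out cluster 4 gave a KO median over the genes of 1.08, and leaving out cluster 1 gave 0.59.

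The same UMIs were also read as cells with a transcript, which for Dnajc3 is another view of the value that chose the genes. With every cell of cluster 4 thinned to 5000 UMIs, which left out 17 WT, 35 KO and 0 KI cells, Dnajc3 was detected in 8.30% of WT cells (6.12% to 10.9%), 16.1% of KO cells (12.5% to 20.3%) and 15.9% of KI cells (10.97% to 21.9%). Unthinned, the shares were 22.0%, 39.1% and 58.7%. Hspa5 was detected at the fixed depth in 38.6% of WT cells, 57.8% of KO cells and 58.7% of KI cells, and Ddit3 in 48.2%, 39.0% and 45.5%. In the WT cells of cluster 5, an elongating spermatid-like cluster with a median of 3122 UMIs that serves as a background, 1.5% (0.31% to 4.32%) of the 200 cells deep enough had a Dnajc3 UMI at the same depth and 7.50% an Hspa5 UMI. That cluster held 8 KO cells and 1 KI cell, so that no such background could be taken in the mutants.

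In barcodes taken as empty, which hold free RNA, Dnajc3 stood at 21.47 CPM in WT, 32.79 CPM in KO and 45.32 CPM in KI. The level of free Dnajc3 RNA was therefore also higher in both mutant libraries. Of the 8 members compared in these barcodes, 3 were at least 1.5-fold higher in each mutant, as were 20.0% of all genes in KO and 20.1% in KI. Elongating spermatid markers in these barcodes summed to 52676 CPM in WT, 19821 CPM in KO and 26811 CPM in KI, spermatocyte markers to 2197, 3116 and 2674 CPM and mitochondrially encoded transcripts to 3527, 5323 and 5134 CPM, and their part in the ratios was not tested. With 10% of the empty profile subtracted from each sum, all values of the members in RS-like cells stayed within their counting intervals. Dnajc3 in the empty profile stood above RS-like cells in WT (21.47 against 18.58 CPM) and in KI (45.32 against 34.71 CPM). In KO it stood below them, at 32.79 against 39.61 CPM. The KI intervals, 40.68 to 50.35 CPM and 30.86 to 38.91 CPM, did not overlap. With levels of the same order in both, a subtraction of this size could move its ratio only little. The share of free RNA in the cells was not measured, and its part in the ratios was not tested.

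Other genes of the pathway did not share a direction in RS-like cells, whose summed UMIs came mostly from cluster 4. Of 19 further ER chaperones and co-chaperones counted, 12 were compared, with a median log2 ratio of 0.07 in KO and 0.02 in KI, where 4 were called higher and 1 lower in KO, and 2 higher and 2 lower in KI. All genes compared were called higher in 14.0% and 16.6% of cases and lower in 8.8% and 11.1%. Of 21 genes of ER-associated degradation, 15 were compared and their median was -0.29 in KO and -0.22 in KI, with 2 called in each direction in KO and 3 in KI. A list of 18 genes around the PERK arm held targets together with the gene of eIF2-alpha and genes of its other kinases. Of these, 4 were compared, with medians of 0.13 and 0.08, 1 called higher in KO and 1 lower in KI. Of 24 genes of translocation and glycosylation 20 were compared, with medians of 0.01 and -0.03, 1 called higher and 3 lower in each mutant. Of 14 sensors and factors 4 were compared, with medians of 0.07 and -0.10 and 1 called higher in each mutant. In cluster 1 alone 21 translocation and glycosylation genes had medians of 0.35 and 0.27. Of these, 9 were called higher and 0 lower in KO, and 6 and 1 in KI. There, of all 9327 genes, 2244 were called higher and 1513 lower in KO, and 1928 and 1551 in KI. Medians there were 0.27 and 0.23 for the further chaperones, 0.09 and -0.14 for degradation and 0.10 and 0.05 for all genes.

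The list genes with the highest and the lowest ratios in both mutants were as follows. Sec62, a receptor of the ER membrane for translocation and for ER turnover, stood at 19.52 CPM in WT, 67.45 CPM in KO and 68.36 CPM in KI (log2 ratios 1.79 and 1.81). Edem1, a lectin that hands misfolded glycoproteins to degradation, stood at 6.91, 19.57 and 21.13 CPM (1.5 and 1.61), and Hspa8, the cytosolic Hsp70 cognate, at 10.27, 23.30 and 26.09 CPM (1.18 and 1.35). At the other end, Dnajb9, an ER J protein that is itself a classic target of the response, stood at 115.5 CPM in WT, 56.62 CPM in KO and 52.06 CPM in KI (-1.03 and -1.15). Spcs1 of the signal peptidase went from 696.2 to 308.6 and 305.8 CPM (-1.17 and -1.19), and Srp9 of the signal recognition particle from 487.0 to 254.9 and 249.6 CPM (-0.93 and -0.96).

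Of the 32 other genes whose promoter holds the ER stress element, 27 were counted and 8 could be compared in RS-like cells. These 8 gave no common shift, with a median log2 ratio of 0.18 in KO and 0.17 in KI, against 0.13 for all genes. Called higher were 2 in KO, Pdia6 and Zfp57, and 2 in KI, Gm34297 and Zfp57, and these are named after their values were seen. None was called lower. Over all genes compared, 14.0% were called higher in KO and 16.6% in KI, and 8.8% and 11.1% were called lower. Zfp57 stood at 19.89 CPM in WT, 46.48 CPM in KO and 44.74 CPM in KI (log2 ratios 1.225 and 1.17). Pdia6, a disulfide isomerase of the ER, stood at 51.17 CPM in WT, 82.37 CPM in KO and 64.46 CPM in KI. Creld2, a secreted ER stress protein, stood at 327.4, 366.7 and 362.8 CPM.

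Germ cells also make paralogs of ER proteins. Calr3, Clgn, Pdilt and Hspa13 had a median log2 ratio of 0.40 in KO and 0.29 in KI in RS-like cells. Of these 4, 0 were called higher and 1 was called lower in each mutant. Of 20 cytosolic heat shock genes, 15 were compared, with medians of 0.18 and 0.23. Among them 3 were called higher and 0 lower in KO, and 2 higher and 1 lower in KI. The shares over all genes were 14.0% higher and 8.8% lower in KO, and 16.6% and 11.1% in KI. None of the 12 genes that respond to tissue dissociation reached the minimum level in RS-like cells.

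In SP-like cells, the stage before the round spermatid, the differences were smaller. Dnajc3 stood at 85.94 CPM in WT (1773 UMIs), 107.0 CPM in KO (3143 UMIs) and 119.4 CPM in KI (3059 UMIs), log2 ratios of 0.32 (0.23 to 0.40) and 0.47 (0.39 to 0.56). Hspa5 went from 426.5 CPM in WT to 484.1 CPM in KO and 473.8 CPM in KI, and Hsp90b1 from 562.0 to 693.9 and 699.5 CPM. Both chaperones were higher in the mutants by more than their counting error and by less than 1.5-fold. Of the 8 members compared, 0 were called higher in either mutant, against 0.976% of genes in KO and 1.64% in KI, and 0 were called lower, against 6.77% and 7.01%. Their median log2 ratio was 0.14 in KO and 0.19 in KI. The libraries were unevenly spread over these clusters, since cluster 9 held 524 of the 1364 WT cells, 149 of the 1159 KO cells and 114 of the 532 KI cells. In cluster 8 alone the log2 ratio of Dnajc3 was 0.11 in KO and 0.18 in KI. Without integration it came to -0.15 in KO and 0.00012 in KI, and the median turned to -0.12 and -0.03.

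Ddit3 and Atf4 were lower in mutant SP-like cells by more than counting error and by less than 1.5-fold. Ddit3 stood at 212.5 CPM in WT, 165.4 CPM in KO and 153.0 CPM in KI, log2 ratios of -0.36 (-0.42 to -0.30) and -0.47 (-0.54 to -0.41). Atf4 stood at 19.39, 16.10 and 15.93 CPM, log2 ratios of -0.27 (-0.46 to -0.07) and -0.28 (-0.49 to -0.08). For Ddit3 both values stayed below 0 under the 10 alternatives that were run for SP-like cells. The summed elongating spermatid markers in these cells were 4160 CPM in WT, 455.8 CPM in KO and 214.9 CPM in KI, and their part in the result was not tested.

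In cluster 11 Dnajc3 was at its highest level in all 3 libraries, at 250.9 CPM in WT, 299.7 CPM in KO and 277.3 CPM in KI. Hspa5 stood at 2012, 2135 and 1968 CPM and Hsp90b1 at 1133, 1147 and 1165 CPM, with log2 ratios of 0.09 and -0.03 for the former and 0.02 and 0.04 for the latter. Eif2ak3 could be compared there, at 13.27 CPM in WT, 8.02 CPM in KO and 12.20 CPM in KI from 23, 16 and 29 UMIs, with an interval in KO that ran from -1.74 to 0.26. Of 9 members compared, 0 were called higher, against 7.46% of genes in KO and 5.4% in KI, and 1, Eif2ak3, was called lower in KO, against 5.65%.

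In cluster 7, the elongating spermatid-like cells nearest to round spermatids, many genes besides the members stood higher in the mutants. Dnajc3 stood at 3.98 CPM in WT (33 UMIs), 22.27 CPM in KO (129 UMIs) and 26.47 CPM in KI (105 UMIs), log2 ratios of 2.49 (1.92 to 3.08) and 2.74 (2.16 to 3.35). However, all genes compared in this cluster had a median log2 ratio of 0.54 in both mutants, and 47.7% of them were called higher in KO and 47.9% in KI, next to 6 and 4 of the 8 members. Atf4 was the 1 member called lower in KO, at a log2 ratio of -0.64, against 8.17% of genes. Elongating spermatid markers summed to 198694 CPM in WT, 79457 CPM in KO and 77509 CPM in KI, and round spermatid markers to 2565, 4669 and 4565 CPM, and their part in these ratios was not tested. Pdia3 stood at 22.89, 69.74 and 69.34 CPM and Calr at 32.28, 70.95 and 63.04 CPM. Ddit3 stood at 74.44 CPM in WT, 59.04 CPM in KO and 64.55 CPM in KI, a log2 ratio of -0.33 (-0.53 to -0.14) in KO and of -0.21 in KI, where the interval of -0.42 to 0.0068 took in 0.

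In Sertoli-like cells Dnajc3 was past 1.5-fold, and several chaperones were higher by more than counting error and less than 1.5-fold. Dnajc3 stood at 30.79 CPM in WT (21 UMIs), 71.16 CPM in KO (86 UMIs) and 72.95 CPM in KI (48 UMIs), log2 ratios of 1.21 (0.51 to 1.97) and 1.24 (0.48 to 2.06). Of 8 members compared it was the 1 called higher in each mutant, where 25.0% of genes were called higher in KO and 28.5% in KI. With cells classed by marker z score its log2 ratio was 0.36 in KO and 0.15 in KI, below 1.5-fold in both. Calr stood at 217.0 CPM in WT, 314.4 CPM in KO and 310.0 CPM in KI, log2 ratios of 0.54 (0.26 to 0.82) and 0.51 (0.20 to 0.83). Those of Hsp90b1 were 0.35 (0.12 to 0.59) and 0.41 (0.15 to 0.67), and that of Canx in KO was 0.55 (0.01 to 1.12). Hspa5 stood at 306.5 CPM in WT, 360.0 CPM in KO and 421.0 CPM in KI, a log2 ratio of 0.23 (-0.01 to 0.48) and 0.46 (0.19 to 0.72). With the z score classes Hspa5 turned to -0.03 in KO and -0.44 in KI and Canx to -0.13 in KO, and Calr in KI came to 0.02. Ddit3 stood at 178.9, 144.8 and 141.3 CPM, with intervals that took in 0. With TMM all ratios in these cells moved by -0.17 in KO and -0.21 in KI, and Dnajc3 was still called higher in both. Of the intervals of the other chaperones above 0, only that of Calr in KO stayed above it. Over all genes the calls in KO went from 2235 higher and 797 lower to 1636 and 1138, and in KI from 2551 and 960 to 1863 and 1524. Over the 8 compared, median log2 ratios were 0.31 for KO and 0.38 for KI, beside 0.22 and 0.18 over all genes.

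These cells also held RNA of germ cells and of other somatic cells, whose part in the ratios was not tested. The 10 elongating spermatid markers summed to 48637 CPM in WT, 12149 CPM in KO and 27974 CPM in KI, and the 10 Sertoli markers to 2433, 2055 and 2585 CPM. Other germ cell markers were higher in the mutants, with sums of 3672, 4204 and 4240 CPM for spermatocytes (median log2 ratios 0.21 and 0.40), 937, 1150 and 1339 CPM for round spermatids (0.26 and 0.49) and 375.4, 482.4 and 492.4 CPM for early meiotic cells (0.27 and 0.49). The 5 Leydig markers summed to 4.399, 53.79 and 48.63 CPM and the 8 stromal and myoid markers to 8.798, 29.79 and 28.87 CPM, so that both sums were higher in the mutants, as Dnajc3 was. Of the 99 genes of all lists compared in these cells, 14 (14.1%) were past 1.5-fold higher in both mutants, namely Dnajc3, Hyou1, Dnajb11, Atf6, Creb3l4, Asns, Ppp1r15b, Eif2ak1, Fbxo6, Hsf1, Hspb1, Hsph1, Calr3 and Pdilt, and 1 (1.01%) was lower, Sec11c. Over all genes the shares were 17.3% and 4.04%, so that the lists held no larger a share than all genes. Hyou1, an ER chaperone of the Hsp110 family, rested on 5 WT, 28 KO and 12 KI UMIs. Calr3 and Pdilt, which germ cells express, stood at 30.79 and 29.33 CPM in WT, 64.54 CPM each in KO and 112.5 and 53.19 CPM in KI.

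By level, Dnajc3 was ordered as cluster 11, SP-like, RS-like and cluster 7 in each library, with 250.9 to 299.7, 85.94 to 119.4, 18.58 to 39.61 and 3.98 to 26.47 CPM over the 3 libraries. The ranges of the last pair overlapped. The SP-like level was uneven over its clusters, with 146.3, 157.8 and 165.9 CPM in WT, KO and KI in cluster 8. Integrated cluster 6, also SP-like, stood at 20.76, 25.5 and 28.62 CPM. That was within the RS-like range and below RS-like cells in both mutants, so the order holds for the SP-like sums only. Sertoli-like cells, at 30.79 to 72.95 CPM, overlapped the RS-like range, and Leydig-like cells, at 99.48 to 166.1 CPM from 13 to 69 UMIs, overlapped the SP-like range. Ddit3 ran another way, with 35.35 to 50.62 CPM in cluster 11, 153.0 to 212.5 CPM in SP-like cells, 108.0 to 119.3 CPM in RS-like cells and 59.04 to 74.44 CPM in cluster 7.

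Over 21 points, the 7 named classes in 3 libraries, the genes whose log2(CPM + 1) profile was closest to that of Dnajc3 were Trip11 (Pearson r = 0.95), Bclaf1 (0.95), Tpr (0.95), Ddb1 (0.94) and Marf1 (0.94), among 11137 genes. The points share libraries and cells, so these values only describe the profiles. Pdia3 and Hsp90b1 each had r = 0.87, Canx 0.86, Hspa5 0.84 and Ddit3 -0.27.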

How the data were processed

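The authors aligned reads to mm10 and deposited raw UMI counts per gene and barcode, with neither cells called nor values normalized. The file headers name Cell Ranger 4, the submitters' processing notes Cell Ranger 2.1.1. The 10 genes and all lists were chosen with earlier results of these data known.

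Cells were called with 3000 expected cells and by comparison with barcodes ranked 45000 to 90000 (10000 simulated barcodes, false discovery rate 0.01), then kept with over 500 genes and under 10% mitochondrial UMIs. Libraries were integrated with Seurat 5.3.0 and sctransform 0.4.2 over 2000 genes, list genes left out, and clustered with leidenalg 0.10.2 at resolution 0.3. Clusters took the class of the highest mean marker z score, with a lead of 0.1 and at least 3 markers raised. Doublets were kept. Scrublet (scanpy 1.11.5) marked 145, 6 and 12 cells in WT, KO and KI, and its removal was an alternative that in KO hardly removed any.

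UMIs were summed per class and library and divided by their total (CPM), and ratios to WT took no pseudocount. Intervals are exact Poisson, conditional binomial or Clopper-Pearson, checked on simulated data. TMM used edgeR 4.0.16. With 1 library per genotype no test was possible, and the intervals cover neither mice nor library preparation. Named genes were all members, the 3 highest and 3 lowest list genes of one direction in RS-like cells, list genes past 1.5-fold in both mutants in Sertoli-like cells and the 5 genes most like Dnajc3. Pdia6, Zfp57, Gm34297 and Creld2, which hold the promoter element, were named after their values were seen. Promoters are RefSeq's, gene positions GENCODE M21.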

Additional observations from a re-analysis of the deposited data

Results flagged for a closer look

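Barcodes taken as empty, which enter no comparison of cells, held more of 6 members in both mutant libraries than in WT, by more than counting error. The log2 ratio to WT of Dnajc3 there was 0.61 in KO and 1.08 in KI. That of Hspa5 was 0.66 in KO and 0.63 in KI, and that of Hsp90b1 0.66 and 0.68. For Pdia3 it was 0.48 and 0.32, for Calr 0.36 and 0.27 and for Canx 0.37 and 0.50. Ddit3 went the other way in KI, at 0.03 (-0.08 to 0.14) in KO and -0.28 (-0.40 to -0.15) in KI. Atf4 was at -0.01 and 0.32, with intervals that took in 0. All genes compared in these barcodes had a median of 0.24 in KO and 0.23 in KI, and 20.0% of them were at least 1.5-fold higher in KO and 20.1% in KI, next to 3 of the 8 members compared in each mutant. In the same barcodes elongating spermatid markers summed to 52676 CPM in WT, 19821 CPM in KO and 26811 CPM in KI and spermatocyte markers to 2197, 3116 and 2674 CPM, and their part in the ratios was not tested.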

How the results depend on the processing

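No paired analysis was possible because each genotype had 1 library, and no library could be left out for the same reason. Values here are log2 ratios to WT, and the cause of a change was not tested unless stated. The sign of the Dnajc3 ratio in RS-like cells held under all 12 alternatives; it left its counting interval only in cells that were RS-like both with and without integration, a choice added after seeing the data (1.37 in KO, 1.22 in KI). The members' median in RS-like cells was reversed without integration, at -0.50 in KO and -0.79 in KI. In KO it moved to 0.64 with TMM, 0.56 without the filter on low values, 0.53 with cells called by UMI totals alone, 0.60 with classes by marker z score, 1.08 without cluster 4, 0.59 without cluster 1 (added after seeing the data) and 0.66 in the cells RS-like in both clusterings. In KI it moved to 0.52 with TMM, 0.44 without the filter, 0.37 with z score classes, 0.86 without cluster 4 and 0.17 in the cells RS-like in both clusterings. Without the filter the median takes in genes of few UMIs. In SP-like cells it was reversed without integration (-0.12 in KO, -0.03 in KI), and moved to 0.09 in KO without the filter and in cluster 8 alone (added after seeing the data), and in KI to 0.12 with z score classes and 0.13 in cluster 8 alone. In Sertoli-like cells no alternative moved it beyond its interval. It nevertheless ran from 0.12 to 0.37 in KO and from 0.08 to 0.76 in KI over the 9 alternatives.

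Single members reversed as follows. Without integration, in RS-like cells Hspa5 came to -0.92 in KO and -1.72 in KI, Hsp90b1 to -0.91 and -1.28, Calr to -0.39 and -0.38 and Canx to -0.50 and -0.79. In SP-like cells of that clustering Dnajc3 came to -0.15 in KO, Calr to -0.09 in KO and -0.05 in KI and Canx to -0.25 and -0.10. In cells RS-like in both clusterings, Hspa5 came to -0.31 and Canx to -0.05 in KI. With z score classes Canx came to -0.0049 in KO in SP-like cells and to -0.13 in KO in Sertoli-like cells, and Hspa5 to -0.44 in KI in Sertoli-like cells. In cluster 8 alone Calr came to -0.02 in KO. Of the other single values 95 left their counting interval without a change of direction that counted as reversed, and 468 stayed within it. Depth limits Xbp1, Atf4 and Eif2ak3 in RS-like cells and all members in Sertoli-like cells.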
